A study of Mus musculus with 2 samples.

Results

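Msx1, Msx2, Dlx3, Dlx5, Dlx6, Pitx1, Barx1, Twist1 and Prrx1 are transcription factor genes that pattern the face and jaws. They were taken by symbol from the gene list of the deposited tables, and all 9 were found among 32285 genes. Their levels were described here across fibroblasts, mural cells, Schwann-like cells, cartilage and bone cells of the mouse temporomandibular joint (TMJ), the hinge between the lower jaw and the skull. The study asked how reduced lymphatics alter the inflamed joint, and its single-cell RNA sequencing compared 1 wild-type (WT) library with 1 Prox1 mutant library. Both came from C57BL/6 mice aged 8 to 10 weeks, female by the study's text, whose joints had received complete Freund's adjuvant (CFA), an inflammatory agent, so neither library is uninjected. The mutant is Prox1+/- by the study's methods, a loss in a regulator of lymphatic endothelium that all cells of the animal carry. Joints were digested with enzymes and passed through a 70 µm filter, and how many mice were pooled is not given in the sources used here.

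The jaw skeleton and its connective tissue arise from cranial neural crest cells that fill the pharyngeal arches. There, endothelin, bone morphogenetic protein (BMP), fibroblast growth factor and hedgehog signals switch on nested sets of homeobox genes. Msx1 and Msx2 are BMP-responsive homeodomain repressors needed for teeth and skull bones. Dlx5 and Dlx6 specify the lower jaw, and Dlx3 acts in teeth, skin appendages and bone. Pitx1 marks the mandibular arch and the hindlimb, and Barx1 marks proximal arch mesenchyme and molar fields. Twist1 is a basic helix-loop-helix factor of cranial mesenchyme and sutures, and Prrx1 is a paired-type homeodomain factor of limb and facial mesenchyme that is widely kept by adult fibroblasts.

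The WT library held 5709 barcodes with 53517206 unique molecular identifiers (UMIs, 1 per captured transcript), and the mutant library held 7846 barcodes with 62446987 UMIs. A minimum of 500 genes and a mitochondrial share below 10% left 4352 WT cells with a median of 6997 UMIs and 5757 mutant cells with a median of 4848. Prox1 itself had 563 UMIs or 11.6 CPM (UMIs per 1000000 UMIs) in kept WT cells and 315 UMIs or 5.80 CPM in kept mutant cells. In mesenchymal cells it had 11 and 14 UMIs. The mix of cells also differed, with 662 WT and 307 mutant cells in the largest endothelial cluster, and its part in the Prox1 levels was not tested. The libraries shared 10 barcodes. With 1 library per genotype there is no test of genotype, no p-value and no replicate spread, and each interval below is a 95% interval for counting error only.

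Cell groups came from 43 clusters built without the 9 genes and related patterning genes among the clustering features, and were called X-like only from marker genes. The mesenchymal cells (540 WT and 547 mutant) split into 7 subclusters. Synovial lining-like fibroblasts (157 and 111 cells) were led by Prg4, which encodes the joint lubricant lubricin. Pi16-positive fibroblasts numbered 58 and 33 cells, and tendon- and ligament-like fibroblasts 62 and 43. The leading genes of the last group included the tendon and matrix genes Kera and Tnmd and the osteoblast genes Bglap and Bglap2. A subcluster of 133 and 91 cells led by Inmt and Fmo2 and a subcluster of 101 and 62 cells led by Adamts18, Hapln1 and Acan fitted no fixed name. The Adamts18 subcluster expressed Acan, the main cartilage proteoglycan, at 878 CPM in WT cells and 1337 CPM in mutant cells. Its leading genes also included the cartilage collagen gene Col2a1, and held more chondrocyte markers than tendon and ligament markers. It is called a fibroblast group below only because its cells lay in the mesenchymal clusters. Both mixed subclusters (25 and 150 cells, and 4 and 57 cells) were led by immunoglobulin, haemoglobin, Car1 or neutrophil genes. Both are in the mesenchymal totals, and the larger is also 1 of the 12 stromal groups compared further on.

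Smooth muscle-like cells (153 and 89), pericyte-like cells (62 and 35), a larger Schwann-like cluster (321 and 148), Fabp7-high Schwann-like cells (51 and 14), chondrocyte-like cells (31 and 109) and osteoblast- and osteocyte-like cells (32 and 23) completed the stroma. A second smooth muscle-like cluster, shallow and almost wholly mutant, held 1 WT and 206 mutant cells. The chondrocyte-like cells of the libraries were unlike each other. Their median depth was 32169 UMIs in WT cells and 3359 in mutant cells, Col2a1, the collagen of cartilage, stood at 30015 and 3189 CPM, and haemoglobin genes at 153 and 100314 CPM. The part of these differences in any genotype ratio of chondrocyte-like cells was not tested.

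A further cluster of 90 WT and 30 mutant cells fitted none of the fixed cell types and is called the Rspo4 cluster here. Its leading genes were Dok6, Gpc5, Plppr1, Egfem1, Rspo4 (which encodes a secreted Wnt enhancer) and Grik1. Rspo4 itself reached 510 CPM in WT cells and 340 CPM in mutant cells, against 1.66 and 1.24 CPM in mesenchymal cells. The cells carried Pdgfra, a mesenchymal receptor, at 144 and 133 CPM, Lum, a matrix proteoglycan, at 690 and 691 CPM, and Sp7, an osteoblast regulator, at 66.3 and 76.6 CPM. The other mesenchymal markers were low. Dcn stood at 315 and 291 CPM against 8113 and 5144 CPM in mesenchymal cells, Col1a2 at 742 and 1077 CPM against 7994 and 5476 CPM, and Col3a1 at 704 and 737 CPM against 9844 and 8817 CPM. Igfbp6 was at 25.2 and 20.3 CPM, Dpt had 3 and 0 UMIs, and Clec3b had 0 UMIs in both libraries. Pdgfra and Lum were at 281 and 314 CPM and at 906 and 778 CPM in mesenchymal cells. Sp7 was at a like level in Acan/Adamts18 fibroblasts (78.8 and 94.7 CPM) and in tendon- and ligament-like fibroblasts (61.6 and 65.9 CPM). It was higher in osteoblast- and osteocyte-like cells (155 and 195 CPM). Among other bone genes in the cluster, Runx2 stood at 771 and 1455 CPM and Alpl at 196 and 270 CPM. Bglap had 26 and 1 UMIs there and Dmp1 had 0 in both libraries. Dspp, the main dentin gene, had 0 UMIs in the cluster. It also had 0 in mesenchymal, chondrocyte-like and osteoblast- and osteocyte-like cells of both libraries, so this 0 does not set the cluster apart. The Rspo4 cluster is described beside the groups of the rule because members were high in it, a choice made after their values were seen.

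**Figure D1:**
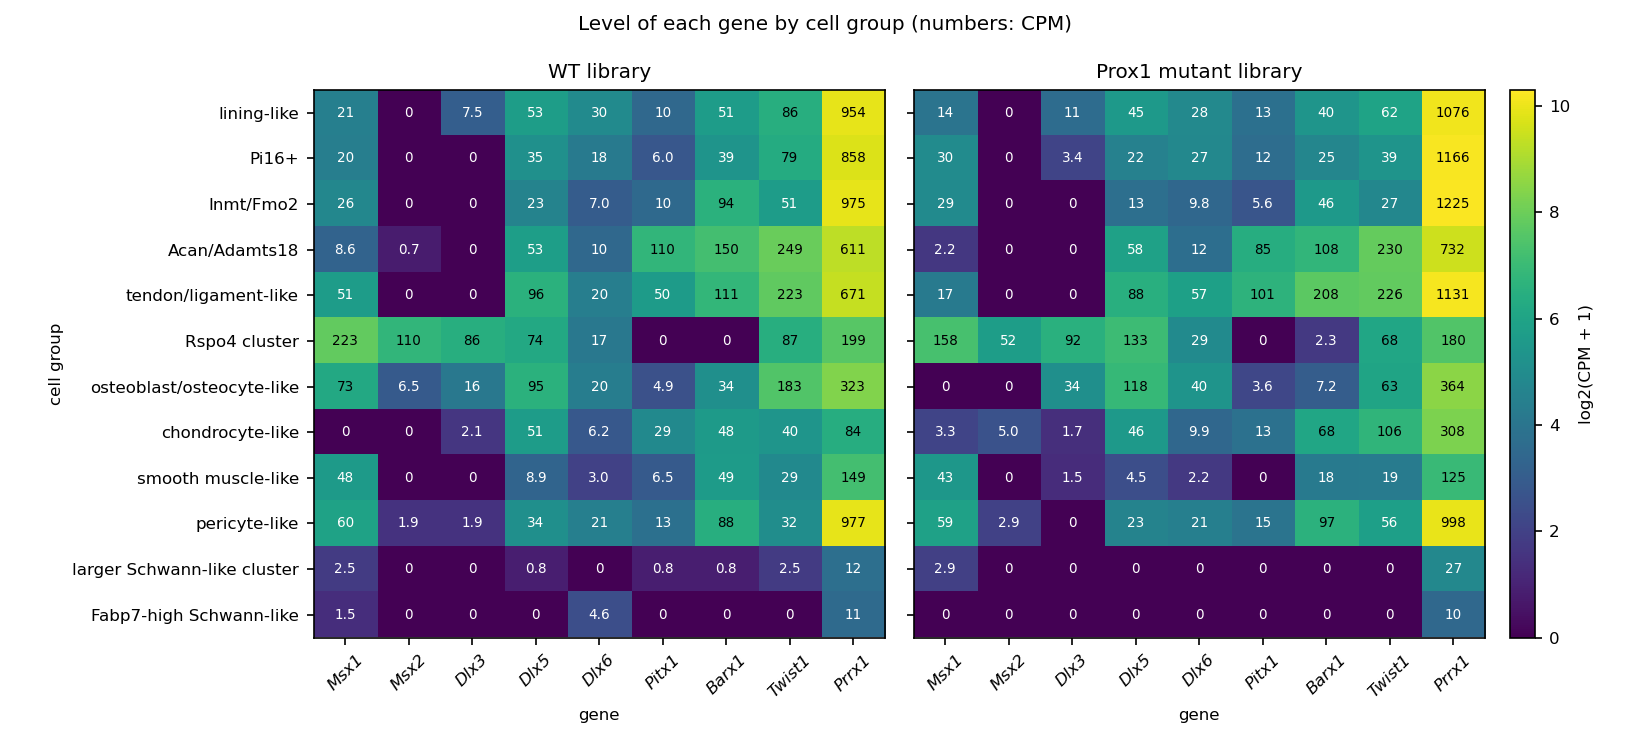
Level of each gene (columns) in each cell group (rows) in the WT library (left) and the Prox1 mutant library (right). Printed values are CPM and colour is log2(CPM + 1). Msx1, Msx2 and Dlx3 stand out in the row of the Rspo4 cluster, Pitx1, Barx1 and Twist1 in the rows of Acan/Adamts18 and tendon- and ligament-like fibroblasts, and Prrx1 is high in all fibroblast rows and in pericyte-like cells.

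Among groups with at least 20 cells in each library, Msx1 and Msx2 had their highest levels in the Rspo4 cluster in both libraries. Msx1 lies on chromosome 5 (GRCm38, 37820485 to 37824583, minus strand) and Msx2 on chromosome 13 (53466884 to 53473074, minus strand). Msx1 had 309 UMIs in the Rspo4 cluster of WT, or 223 CPM (interval 199 to 249), and 70 UMIs in mutant cells, or 158 CPM (123 to 199). A UMI was seen in 70 of 90 WT cells and 20 of 30 mutant cells. The level was 9.0-fold (7.50 to 10.8) that of WT mesenchymal cells and 9.76-fold (7.10 to 13.3) that of mutant ones.

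Msx2 was almost confined to these cells in WT. It had 152 UMIs in 50 of 90 WT cells, or 110 CPM (92.9 to 128), and 23 UMIs in 11 of 30 mutant cells, or 51.8 CPM (32.8 to 77.7). Although it held 2.07% of kept WT cells and 0.521% of kept mutant cells, the Rspo4 cluster contributed 92.1% (86.9 to 95.7) of WT Msx2 UMIs and 57.5% (40.9 to 73.0) of mutant Msx2 UMIs. All 540 WT mesenchymal cells together gave 6 Msx2 UMIs, of which 5 came from 1 cell of a mixed subcluster with 4 WT cells. The same subcluster gave 20 of the 194 WT mesenchymal Msx1 UMIs, also from 1 cell. The 547 mutant mesenchymal cells gave 0, which allows up to 0.466 CPM. Msx2 was thus 143-fold (64.3 to 396) higher in the Rspo4 cluster than in mesenchymal cells in WT. In mutant cells the ratio was 111-fold with the limit of 3 counts in place of 0. That value leaves out counting error on the 23 UMIs, so it is not a lower bound.

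Outside that cluster Msx1 was spread over vessel-wall, bone and fibroblast groups. Pericyte-like cells had 59.7 CPM in WT cells (40.8 to 84.2) and 58.7 CPM in mutant cells (35.8 to 90.6), and smooth muscle-like cells 48.1 (38.2 to 59.8) and 43.3 CPM (32.9 to 56.0). Among fibroblasts, synovial lining-like cells had 21.1 and 14.5 CPM, Pi16-positive cells 20.3 and 30.3 CPM, and Inmt/Fmo2 cells 26.1 and 29.4 CPM, with intervals that overlap between these 3 groups within each library. Tendon- and ligament-like fibroblasts had 50.9 CPM in WT cells (36.8 to 68.6, 43 UMIs), clear of the WT lining-like interval (16.3 to 26.7), and 17.3 CPM in mutant cells (8.32 to 31.9, 10 UMIs). Acan/Adamts18 fibroblasts were lowest, with 12 WT UMIs (8.6 CPM) and 2 mutant UMIs (2.20 CPM). Osteoblast- and osteocyte-like cells had 45 UMIs in 10 of 32 WT cells, 73.4 CPM (53.5 to 98.2), and 0 UMIs in 23 mutant cells, which allows up to 5.43 CPM. Endothelial cells of the cluster led by Nebl also carried Msx1, at 37.6 CPM in WT cells (59 UMIs) and 42.1 CPM in mutant cells (47 UMIs).

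The level order for Msx1 in WT was therefore the Rspo4 cluster first, then osteoblast- and osteocyte-like, pericyte-like, tendon- and ligament-like and smooth muscle-like cells, whose intervals overlap their neighbours. In the mutant it was the Rspo4 cluster first, then pericyte-like and smooth muscle-like cells, which also overlap. Outside the Rspo4 cluster no named stromal group had more than 6 Msx2 UMIs in either library.

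The promoter windows of Msx1 and Twist1 (250 bases before the RefSeq gene start, GRCm38.p6) are shown because these genes led the same group in both libraries across the stromal clusters and subclusters. Short stretches of Msx2 and Prrx1 are shown because their windows hold TAATTA, the core bound by many homeodomain proteins. CANNTG, the E-box of basic helix-loop-helix proteins such as Twist1, was the other motif searched. Both motifs read the same on either strand, and capitals mark each match. The Msx1 window is chr5:37824586-37824835 and the Msx2 stretch is chr13:53472952-53472977, both on the minus strand. The Twist1 window is chr12:33957421-33957670 on the plus strand and the Prrx1 stretch is chr1:163313808-163313833 on the minus strand.
Msx1: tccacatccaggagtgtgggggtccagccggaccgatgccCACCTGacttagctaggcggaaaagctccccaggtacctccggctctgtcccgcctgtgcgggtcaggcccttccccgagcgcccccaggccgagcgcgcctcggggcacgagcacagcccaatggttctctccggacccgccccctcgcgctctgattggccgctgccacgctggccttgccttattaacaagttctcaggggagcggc
Twist1: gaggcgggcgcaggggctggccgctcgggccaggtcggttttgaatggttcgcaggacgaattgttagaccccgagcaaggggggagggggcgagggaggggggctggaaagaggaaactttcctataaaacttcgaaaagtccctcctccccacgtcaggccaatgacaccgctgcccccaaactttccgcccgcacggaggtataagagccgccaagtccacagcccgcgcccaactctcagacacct
Msx2: actgctcctgTAATTAactcctaatt
Prrx1: aagggaatgaTAATTAgacctttatt
Msx1 held 1 E-box, 210 bases before the start, and no TAATTA. Twist1 held neither motif. TAATTA lay 187 bases before the start of Msx2, whose window also held 1 E-box, 79 bases before the start, and 173 bases before that of Prrx1. These distances count from the RefSeq start. All 250 bases of the Msx2 window, the printed stretch included, lie within the gene as GENCODE M21 annotates it, as do 60 of the 250 bases of the Prrx1 window and 38 of the 250 of Barx1. The Barx1 window held neither. Among 32851 RefSeq promoter windows of the same length, 4.84% held TAATTA and 66.2% held at least 1 E-box. Entries matched 5 of the 9 genes, namely Msx1, Msx2, Barx1, Twist1 and Prrx1. The members without an entry are Dlx3, Dlx5, Dlx6 and Pitx1.

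Among the Dlx genes, Dlx3 was narrow and Dlx5 and Dlx6 were broad. Dlx3 lies on chromosome 11 (95120119 to 95125296, plus strand). The Rspo4 cluster had 119 Dlx3 UMIs in 46 of 90 WT cells, or 85.8 CPM (71.1 to 103), and 41 UMIs in 14 of 30 mutant cells, or 92.3 CPM (66.3 to 125). This was 26.9-fold (17.4 to 43.2) the mesenchymal level in WT cells and 16.99-fold (10.6 to 27.5) in mutant cells.

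Bone and synovial lining cells held most of the remaining Dlx3. Osteoblast- and osteocyte-like cells had 16.3 CPM in WT cells (7.82 to 30.0, 10 UMIs) and 34.4 CPM in mutant cells (20.7 to 53.7, 19 UMIs). Synovial lining-like fibroblasts had 7.54 CPM in WT cells (24 UMIs in 13 of 157 cells) and 11.4 CPM in mutant cells (33 UMIs in 17 of 111 cells). Of 25 Dlx3 UMIs in WT mesenchymal cells 24 lay in the lining-like group, and of 35 in mutant cells 33 did. Acan/Adamts18, tendon- and ligament-like and Inmt/Fmo2 fibroblasts had 0 in both libraries, which allows at most 5.20 CPM, so within fibroblasts Dlx3 was detected almost only in the lining-like group.

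Dlx5 (chromosome 6, 6877805 to 6882085, minus strand) and Dlx6 (6863334 to 6868568, plus strand) face each other, with 9236 bases between their ends. In WT, Dlx5 stood at 95.9 CPM (76.2 to 119) in tendon- and ligament-like fibroblasts, 94.6 CPM (71.8 to 122) in osteoblast- and osteocyte-like cells and 74.2 CPM (60.6 to 90.05) in the Rspo4 cluster. In the mutant those groups had 88.5 CPM (65.9 to 116), 118 CPM (90.7 to 150) and 133 CPM (101 to 171). The intervals of these groups overlapped, so no leader can be named. Chondrocyte-like cells had 50.7 and 46.3 CPM, synovial lining-like fibroblasts 52.8 and 45.2 CPM, and Acan/Adamts18 fibroblasts 53.0 and 58.4 CPM. Inmt/Fmo2 fibroblasts were lower, at 23.5 and 12.6 CPM, and smooth muscle-like cells lower still, at 8.92 and 4.48 CPM.

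Dlx6 had fewer UMIs than Dlx5 (410 against 1063 in the 12 stromal groups compared further on) and followed it only in part. In Acan/Adamts18 fibroblasts Dlx6 had 10.0 and 12.1 CPM and in chondrocyte-like cells 6.21 and 9.92 CPM, low beside Dlx5 there. It had 29.8 and 28.0 CPM in synovial lining-like fibroblasts, 20.1 and 57.2 CPM in tendon- and ligament-like fibroblasts, 19.6 and 39.8 CPM in osteoblast- and osteocyte-like cells and 20.5 CPM in pericyte-like cells of both libraries. Across the 12 stromal groups the Pearson correlation of Dlx5 and Dlx6 on log2(CPM + 5) was 0.82 in WT cells and 0.83 in mutant cells, a description over groups of the same library. The antisense gene Dlx6os1 overlaps Dlx6 and was high in the Rspo4 cluster, at 178 CPM in WT cells and 410 CPM in mutant cells, against 20.8 and 17.4 CPM in mesenchymal cells. Whether counting used strand is not given in the sources used here, so reads of the pair cannot be told apart with certainty. Dlx6 itself was not raised in the Rspo4 cluster, at 16.6 and 29.3 CPM against 19.5 and 23.4 CPM.

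**Figure D2:**
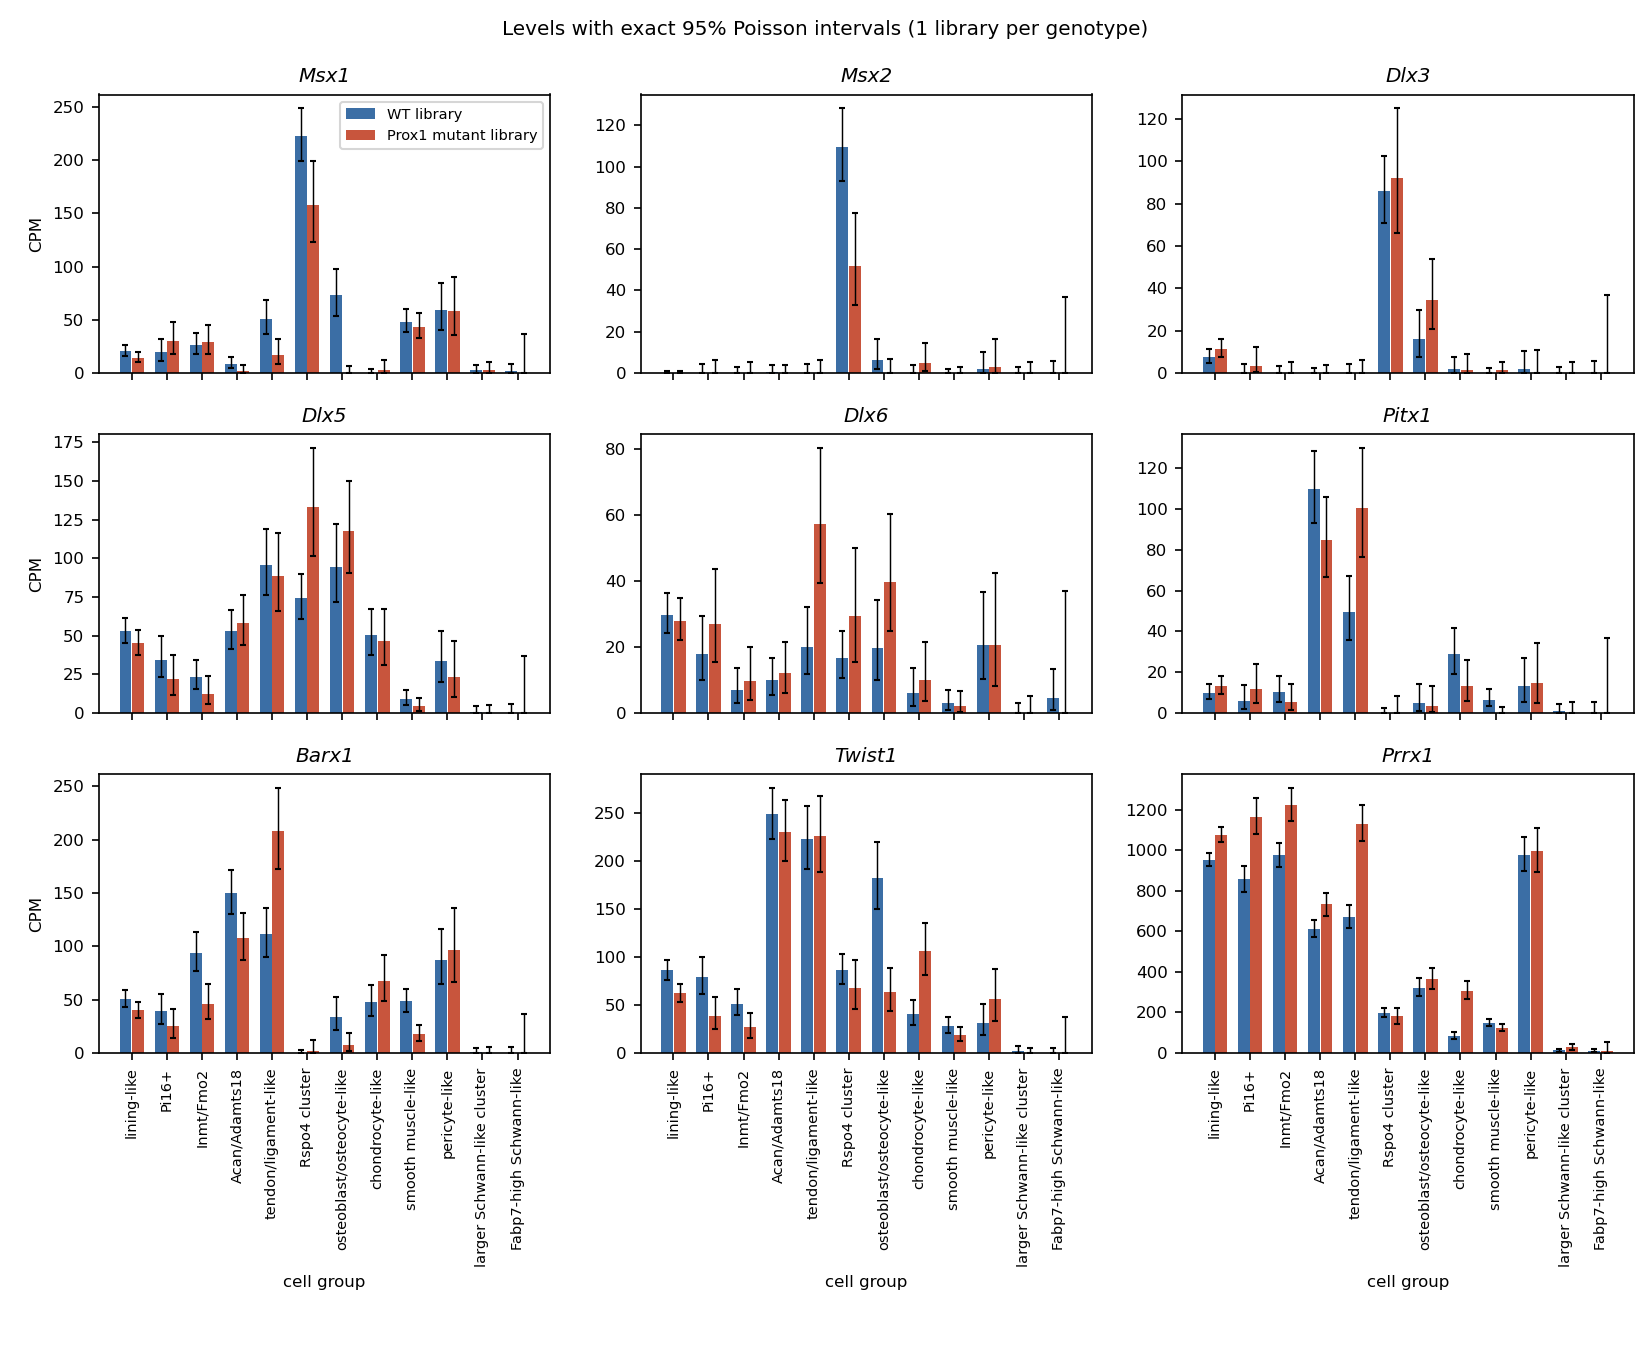
CPM of each gene (y axis, linear and starting at 0, with its own scale per gene) by cell group (x axis) in the WT library (blue) and the Prox1 mutant library (red). Bars are levels from summed UMIs and error bars are exact 95% Poisson intervals. The Msx1, Msx2 and Dlx3 bars of the Rspo4 cluster lie above all others shown for those genes, whereas Pitx1 and Barx1 bars are at or near 0 there.

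Pitx1 and Barx1 were nearly absent from the Rspo4 cluster, where Msx1, Msx2 and Dlx3 were highest. Pitx1 lies on chromosome 13 (55825051 to 55836192, minus strand) and Barx1 on the same chromosome (48662998 to 48666507, plus strand). Pitx1 was highest in Acan/Adamts18 fibroblasts in WT, at 110 CPM (92.9 to 128, 153 UMIs in 72 of 101 cells), and stood at 84.8 CPM (66.9 to 106) there in mutant cells. Tendon- and ligament-like fibroblasts had 49.7 CPM (35.8 to 67.2) in WT cells, compared with 101 CPM (76.4 to 130) in mutant cells. The gap between these groups exceeded counting error in WT, and in mutant cells their intervals overlapped.

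The other groups held little Pitx1. Synovial lining-like fibroblasts had 10.1 and 13.1 CPM, pericyte-like cells 13.1 and 14.7 CPM, and chondrocyte-like cells 29.0 and 13.2 CPM. Mesenchymal cells as a whole held 80.4% (75.6 to 84.7) of kept WT Pitx1 UMIs and 70.8% (64.9 to 76.2) of mutant ones, with 12.4% and 9.50% of the cells. No UMI of Pitx1 was found in 90 WT and 30 mutant cells of the Rspo4 cluster. With the limit of 3 counts in place of 0, this is 15.0-fold below the mesenchymal level in WT cells and 4.34-fold below it in mutant cells. These values leave out counting error on the mesenchymal UMIs, so they are not bounds.

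Barx1 was high in the same fibroblasts and also in pericyte-like cells. Acan/Adamts18 fibroblasts had 150 CPM (130 to 171) in WT cells, compared with 108 CPM (87.6 to 131) in mutant cells, and tendon- and ligament-like fibroblasts 111 CPM (89.9 to 136) and 208 CPM (173 to 249). Pericyte-like cells had 87.6 CPM (64.4 to 116) and 96.8 CPM (66.7 to 136). The larger mixed subcluster had 122 CPM (88.5 to 164, 44 UMIs in 25 cells) in WT cells, second to Acan/Adamts18 fibroblasts, and 42.5 CPM (26.9 to 63.8) in mutant cells. Inmt/Fmo2 fibroblasts had 93.9 and 46.1 CPM, synovial lining-like fibroblasts 50.6 and 40.04 CPM, and smooth muscle-like cells 48.7 and 17.9 CPM. The Rspo4 cluster had 0 Barx1 UMIs in WT, which with the limit of 3 counts is 38.3-fold below mesenchymal cells. That value likewise leaves out counting error on the mesenchymal UMIs. Mutant cells of the cluster had 1 Barx1 UMI, a ratio of 0.0354 (0.000893 to 0.198) to mesenchymal cells.

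Pitx1 and Barx1 were also found in the same cells. Both had a UMI in 113 of 540 WT mesenchymal cells, where the product of their shares within each subcluster gives 83.1, and in 67 of 547 mutant cells, where it gives 45.1. With each cell thinned to 2000 UMIs the counts were 12 of 524 against 6.72 in WT cells and 4 of 458 against 3.54 in mutant cells, and at 5000 UMIs 33 of 457 against 30.4 and 23 of 319 against 13.9. Dlx5 and Dlx6 shared 62 WT cells against 46.7 and 61 mutant cells against 48.3. At 2000 UMIs they shared 0 against 1.95 and 3 against 1.87, products too small to show an excess, and at 5000 UMIs 8 against 8.44 and 12 against 9.07. In the Rspo4 cluster Msx1 and Msx2 shared 48 of 90 WT cells against 38.9 and 10 of 30 mutant cells against 7.33. At 2000 UMIs they shared 7 of 88 WT cells against 6.75 and 0 of 30 mutant cells against 0. At 5000 UMIs they shared 29 of 83 WT cells against 24.3 and 1 of 25 mutant cells against 0.96. Unthinned, each of these counts was above its product. Thinned counts lay on either side of it for Dlx5 and Dlx6. For Pitx1 and Barx1, and for Msx1 and Msx2 in the Rspo4 cluster, those given lay above it, apart from the mutant count of 0 against 0. In several cases this was by less than 1 cell. These pairs were picked from 36, and an unthinned excess was not particular to them. Dlx5 and Twist1 shared 143 WT mesenchymal cells against 136 and 109 mutant ones against 95.9. In the WT Rspo4 cluster Msx2 and Dlx3 shared 37 cells against 25.6. Some pairs went the other way, such as Msx1 and Dlx5 in WT mesenchymal cells, with 36 against 41.6.

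Twist1 and Prrx1 had a UMI in more mesenchymal cells than any other member. Twist1 (chromosome 12, 33957671 to 33959829, plus strand) was highest in Acan/Adamts18 fibroblasts, at 249 CPM (223 to 276) in WT cells, compared with 230 CPM (200 to 264) in mutant cells. Tendon- and ligament-like fibroblasts had 223 CPM (192 to 257) and 226 CPM (188 to 268), within counting error of the former. Osteoblast- and osteocyte-like cells had 183 CPM (150 to 220) in WT cells, compared with 63.3 CPM (44.1 to 88.0) in mutant cells. Synovial lining-like fibroblasts had 86.1 and 62.1 CPM, the Rspo4 cluster 86.5 and 67.6 CPM, and Schwann-like cells at most 2.48 CPM. In the Schwann-like groups the remaining members apart from Prrx1 had at most 3 UMIs each.

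Prrx1 (chromosome 1, 163245119 to 163313710, minus strand) was high in every named fibroblast subcluster. In WT its level was 954 CPM in synovial lining-like, 858 CPM in Pi16-positive, 975 CPM in Inmt/Fmo2, 611 CPM in Acan/Adamts18 and 671 CPM in tendon- and ligament-like fibroblasts. In the mutant these groups had 1076, 1166, 1225, 732 and 1131 CPM. Pericyte-like cells had fibroblast-like levels, 977 CPM (895 to 1064) and 998 CPM (894 to 1109), while smooth muscle-like cells had 149 and 125 CPM. Osteoblast- and osteocyte-like cells had 323 and 364 CPM and the Rspo4 cluster 199 and 180 CPM, 0.239-fold (0.211 to 0.270) and 0.185-fold (0.147 to 0.231) of mesenchymal cells. The larger Schwann-like cluster had 12.4 and 27.1 CPM, beside 7.39 and 7.82 CPM in neutrophil-, erythroid- and B-like cells, which should lack the gene.

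After thinning each cell to 2000 UMIs, Prrx1 had a UMI in 68.5% (64.3 to 72.5) of 524 WT and 63.1% (58.5 to 67.5) of 458 mutant mesenchymal cells. Shallower cells, 16 WT and 89 mutant, were left out. The mesenchymal cells here include the mixed subclusters, which held 25 WT and 150 mutant cells, and 4 WT and 57 mutant cells, before thinning. The part of these subclusters in the mesenchymal shares was not tested. Unthinned shares were 94.1% and 73.3%, at median depths of 12178 and 7160 UMIs. Twist1 had a UMI in 24.8% and 14.0% of the thinned cells, Barx1 in 12.2% and 11.4%, Dlx5 in 9.35% and 7.86%, Pitx1 in 7.44% and 4.37%, Msx1 in 4.58% and 3.06%, and Dlx3 in 0.382% and 0.655%. In the neutrophil-, erythroid- and B-like cells, with median depths of 7297 and 8300 UMIs, the thinned share was 0.963% and 2.52% for Prrx1, 0.275% and 0.0814% for Msx1 and 0.275% and 0% for Dlx3. The mesenchymal Dlx3 share therefore lies near this background, while the other members named here lie above it. In the thinned Rspo4 cluster Msx1 had a UMI in 30.7% (21.3 to 41.4) of 88 WT cells and 16.7% (5.64 to 34.7) of 30 mutant cells, and Msx2 in 25% (16.4 to 35.4) of the WT cells and 0 of the mutant cells (upper bound 11.6%).

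**Figure D3:**
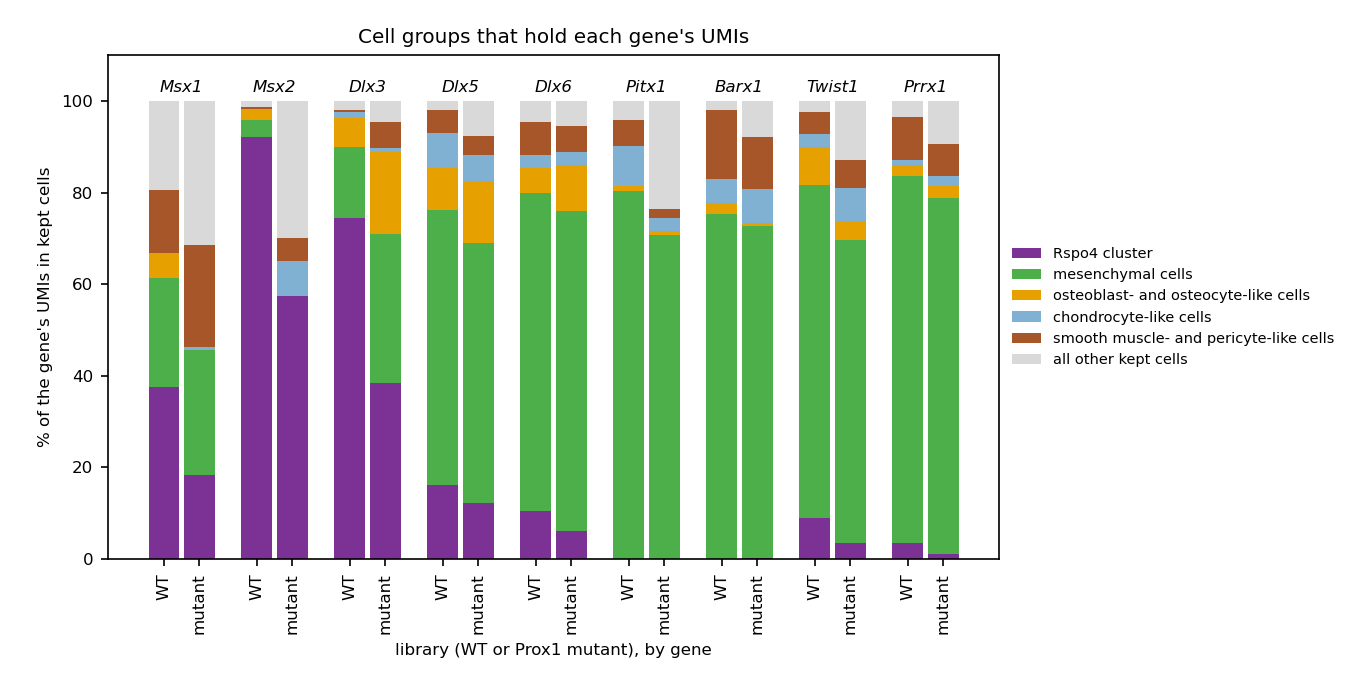
Share of each gene's UMIs in kept cells (y axis, percent) by the cell group that holds them (colours), for the WT and Prox1 mutant library of each gene (x axis). The Rspo4 cluster holds 92.1% of WT Msx2 UMIs and 74.4% of WT Dlx3 UMIs, and mesenchymal cells hold 80.4% of WT Pitx1 UMIs.

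Whether the distribution over groups was the same in both libraries was asked of the 6 named stromal groups (mesenchymal, smooth muscle, pericyte, Schwann, chondrocyte, and osteoblast and osteocyte). Of 8 genes with at least 50 UMIs, 5 had the same leading group in both libraries, against 49.6% of 13403 genes. Dlx3 and Dlx5 led in osteoblast- and osteocyte-like cells, Pitx1 in mesenchymal cells, and Barx1 and Prrx1 in pericyte-like cells. The Dlx3 and Dlx5 leads exceeded counting error in both libraries, the Prrx1 lead did in WT, and the Pitx1 and Barx1 leads did not in either. With the 12 stromal clusters and fibroblast subclusters taken apart, 4 of 9 genes had the same leader, against 44.6% of 13555 genes. These were Msx1, Msx2 and Dlx3 in the Rspo4 cluster, with intervals clear of the next group, and Twist1 in Acan/Adamts18 fibroblasts, within counting error of the next group. Dlx5 was not among them. Its highest level was in tendon- and ligament-like fibroblasts in WT and in the Rspo4 cluster in the mutant. Both were within counting error of osteoblast- and osteocyte-like cells. The shares of members are close to those of all genes.

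Mutant and WT levels in mesenchymal cells as a whole stayed within 2-fold of each other for all 8 genes assessed, while 4.9% of 11738 genes were past 2-fold. The log2 ratio of mutant over WT CPM was -0.62 (-0.97 to -0.26) for Msx1, -0.48 (-0.63 to -0.33) for Twist1 and -0.38 (-0.56 to -0.20) for Barx1. It was 0.22 (0.17 to 0.27) for Prrx1 and 0.77 (-0.01 to 1.57) for Dlx3. For Dlx5 it was -0.20 (-0.42 to 0.03), for Dlx6 0.26 (-0.07 to 0.60) and for Pitx1 -0.15 (-0.43 to 0.13), each spanning 0. With the mean of per-cell CPM in place of summed UMIs, Prrx1 turned to -0.28 and Dlx6 to -0.23. The median of the 8 was -0.17, beside 0.03 over all genes. Mixed subclusters made up 29 of 540 WT and 207 of 547 mutant cells and the larger of them had haemoglobin genes at 23976 and 190797 CPM. Without both, 0 genes were past 2-fold and the Prrx1 ratio was 0.31.

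Within fibroblast groups the ratios differed more. Tendon- and ligament-like fibroblasts had 2 genes higher and 1 lower past 2-fold of 7 assessed, where 9.04% of genes were past 2-fold in either direction. Msx1 was lower in mutant cells, with 43 WT and 10 mutant UMIs and a log2 ratio of -1.55 (-2.71 to -0.54). Dlx6 and Pitx1 were higher, with log2 ratios of 1.51 (0.62 to 2.44) and 1.02 (0.42 to 1.63). Barx1 at 0.90 (0.50 to 1.31) and Prrx1 at 0.75 (0.59 to 0.92) were within 2-fold, and the members' median was 0.75 beside 0.07 over all genes. Other genes in this group also differed between the libraries. Bglap, one of its leading genes, stood at 226 CPM in WT cells and 619 CPM in mutant cells. The general mesenchymal marker Dpt stood at 29.6 and 212 CPM, below mesenchymal cells as a whole (523 and 665 CPM). Clec3b, another such marker, stood at 8.29 and 45.1 CPM, against 569 and 423 CPM. The glial and cartilage gene S100b stood at 10.7 and 108 CPM. The part of these differences in the ratios above was not tested.

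The remaining fibroblast groups had few members past 2-fold. None of 8 was past it in synovial lining-like fibroblasts, where 3.89% of genes were, and none of 5 in Acan/Adamts18 fibroblasts, where 4.87% were. In Inmt/Fmo2 fibroblasts 1 of 4 was, Barx1 at -1.02 (-1.63 to -0.45), against 6.45% of genes. In Pi16-positive fibroblasts 1 of 2 was, Twist1 at -1.02 (-1.78 to -0.32), against 4.28% of genes. Twist1 was below 0 beyond counting error in lining-like, Pi16-positive and Inmt/Fmo2 fibroblasts, and its interval spanned 0 in Acan/Adamts18 and tendon- and ligament-like fibroblasts. Prrx1 was above 0 beyond counting error in all 5 of these groups, with ratios from 0.17 to 0.75.

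In the Rspo4 cluster 1 of 6 genes assessed was past 2-fold, where 11.2% of genes were. This was Msx2 at -1.08 (-1.78 to -0.44). Msx1 stood at -0.50 (-0.89 to -0.12), Dlx5 at 0.84 (0.35 to 1.32) and Dlx3 at 0.11. The mutant side of these ratios rests on 30 cells. In smooth muscle-like cells Barx1 was the 1 of 4 past 2-fold, at -1.44 (-2.16 to -0.77), against 4.09% of genes.

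Bone and cartilage cells showed larger ratios in genes at large. In osteoblast- and osteocyte-like cells Twist1 was the 1 of 3 past 2-fold, at -1.53 (-2.12 to -0.97), where 12.9% of genes were. In the same cells Bglap, the osteoblast gene for osteocalcin, stood at 24489 CPM in WT cells and 7128 CPM in mutant cells, and Dmp1, an osteocyte gene, at 83.1 and 684 CPM. Whether these differences have a part in the Twist1 ratio was not tested. In chondrocyte-like cells Prrx1 at 1.87 (1.49 to 2.27) and Twist1 at 1.39 (0.79 to 2.0) were the 2 of 4 past 2-fold, where 26.8% of genes were. The lubricin gene Prg4 in these cells was at 2.07 CPM in WT cells and 475 CPM in mutant cells.

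**Figure D4:**
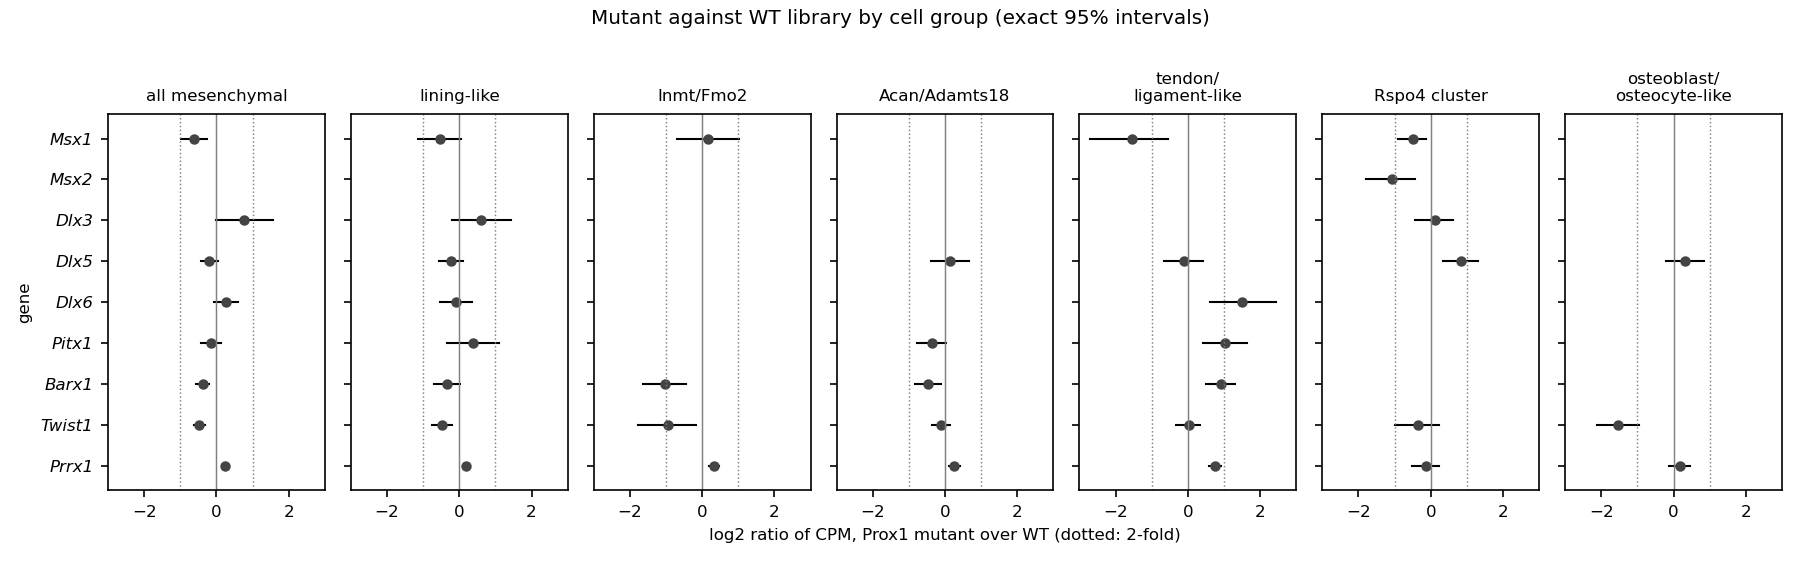
Log2 ratio of CPM, Prox1 mutant over WT (x axis), for each gene (y axis) in 7 cell groups (panels). Points are ratios, bars exact 95% intervals for counting error and dotted lines 2-fold. Only genes with at least 50 UMIs over both libraries in a group are drawn. The Prrx1 points of the fibroblast panels lie right of 0, and the Msx2 point of the Rspo4 cluster lies left of the 2-fold line.

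The genes whose levels over the 12 stromal groups of both libraries (24 points) were most like each member were named by Pearson correlation of log2(CPM + 5), among 10298 genes. The points share libraries and depths, so the values are descriptions. Msx2 was closest to Plppr1, Gpc5 and Hand2os1 (r of 0.96 each) and Dlx3 to Dlx4os (0.90), Enpp6 (0.90) and Unc5d (0.86). Plppr1, Gpc5 and Unc5d were among the leading genes of the Rspo4 cluster. Msx2 had few UMIs in other groups, so its likeness to Plppr1 and Gpc5 restates its high level in that cluster. For Msx1 the closest genes were Zfand5 (0.85), Wasf3 (0.83) and Astn2 (0.81).

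Pitx1 was closest to Angptl2 (0.89), Atp6v0e (0.84) and Col6a3 (0.84), and Barx1 to Htra1 (0.90), Aspn (0.89) and Mgp (0.85), the last 3 encoding matrix or matrix-modifying proteins. Twist1 was closest to Trp53i13 (0.90), Tceal9 (0.90) and Mxra8 (0.89), and Prrx1 to Dse (0.94), Sdc2 (0.90) and Tbc1d2b (0.90). Dlx5 was closest to Tceal9 (0.86), Dnm3os (0.86) and Scarf2 (0.85). Dlx6 was closest to Hdac3 (0.82), its neighbour Dlx5 (0.81) and Eef1g (0.79). Between members, Pitx1 and Barx1 correlated at 0.81 in WT cells and 0.86 in mutant cells, and Msx2 and Dlx3 at 0.93 and 0.69.

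A list of 50 other craniofacial transcription factors had 48 members detected in the stroma and 41 with at least 50 UMIs there. Bnc2, Nr2f2 and Foxp2 were among the 5 with the highest stromal levels. Of 33 assessed in mesenchymal cells 1 was past 2-fold higher and 0 lower, where 4.9% of 11738 genes were past 2-fold in either direction. Their median log2 ratio was -0.02 beside 0.03 over all genes. The gene past 2-fold was Osr2, at 10.97 CPM in WT cells and 23.6 CPM in mutant cells, a log2 ratio of 1.11 (0.71 to 1.5). A list of 22 arch signals and their targets had 16 assessed, 0 past 2-fold beside the same 4.9% of genes, and a median of -0.10.

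In the Rspo4 cluster, 14 of the 41 factors had their highest stromal level in both libraries, where 10.1% of 13555 genes did. Named after their values were seen, they include Alx1 at 165 and 108 CPM (0.510 and 0.621 CPM in mesenchymal cells), Hand2 at 86.5 and 101 CPM and Dlx4, the genomic neighbour of Dlx3, at 78.6 and 67.6 CPM. Alx1 acts in the frontonasal midface and Hand2 in the distal lower jaw. Of 18 signal genes with at least 50 UMIs 4 had their highest level there in both libraries. These were the hedgehog receptor and target Ptch1 (425 and 955 CPM), the BMP target Id1 (327 and 309 CPM), Bmp2 (291 and 232 CPM) and Bmp7 (46.1 and 63.1 CPM). From the same list Id2, Id3 and Gli1 did not have their highest level there in both libraries. Each was above its mesenchymal level there, and Gli1 led there in the mutant library only.

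**Figure D5:**
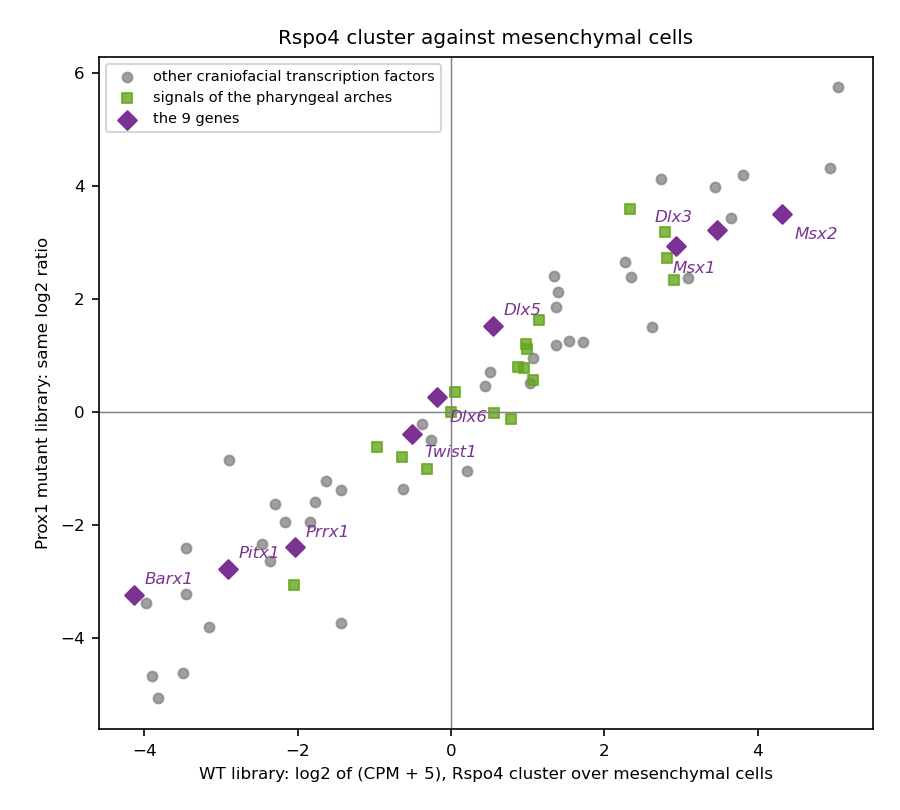
Log2 ratio of CPM + 5 in the Rspo4 cluster over mesenchymal cells in the WT library (x axis) and the Prox1 mutant library (y axis). Diamonds are the 9 genes, circles the other craniofacial transcription factors and squares the arch signals with at least 50 stromal UMIs. Msx1, Msx2 and Dlx3 lie at the upper right and Pitx1, Barx1 and Prrx1 at the lower left in both libraries.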

How the data were processed

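Per the labels and the study's methods, the authors counted UMIs with Cell Ranger 7.0.1 on GRCm38 (mm10), and the deposited tables hold raw UMI counts per gene and barcode. The labels name a 3' v2 kit and the study's methods a later version, which could change capture. Barcodes passed at 500 genes or more and below 10% mitochondrial UMIs, and were normalised with SCTransform 0.4.2, integrated and clustered in Seurat 5.3.0 (200 principal components, resolution 1.5) without the 9 genes and listed patterning genes. Mesenchymal cells were reclustered (30 components, resolution 0.5). A cluster was named from at least 3 of its fixed markers raised 2-fold.

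UMIs were summed per group and library and given as CPM with exact Poisson intervals, with exact binomial intervals for ratios and shares (scipy 1.17.1). Genes needed 50 UMIs over both libraries, and groups 20 cells in each library. A count of 0 was limited by 3 counts. Intervals were checked on simulated Poisson counts. Those counts hold no clumping of UMIs within cells, so the check says nothing on error beyond counting. Scrublet's automatic threshold called 0 doublets, so none were removed in the main values. The text names all 9 members, the 3 genes most like each, and some of the 5 highest and any past 2-fold of each list. It also names listed genes chosen after their values in the Rspo4 cluster were seen. Values of some listed genes are not reported here. Members, lists and groups were chosen with earlier results of these data known. No PBS-injected library was analysed here.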

Additional observations from a re-analysis of the deposited data

How the results depend on the processing

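Across the settings run, apart from the comparison of only 3 groups given below, the number of members with the same leading group in both libraries ranged from 4 to 6. Inclusion of the Rspo4 cluster, the split into all stromal clusters and the removal of mixed subclusters were chosen after seeing the data. In the other clusterings the share of all genes with the same leader ranged from 49.3% (doublets removed, 6 named groups, 5 of 8 members) to 66.9% (resolution 0.5, 4 named groups, 6 of 8 members). The number was 8 when only the 3 groups with at least 50 cells in each library were compared. With fewer groups any gene more easily keeps its leader, and the share of all genes is not given for that setting. No member was past 2-fold in mesenchymal cells under any setting run. Of 80 mesenchymal ratios 66 moved by less than counting error and 14 moved more. With the mean of per-cell CPM, 6 of 8 moved more, all of them lower. Under that setting 2 ratios turned direction, Dlx6 to -0.23 and Prrx1 to -0.28. Under the looser filter (200 genes, 20% mitochondrial UMIs) 4 of 8 moved more, all lower, and Dlx6 stood at -0.11. Of 162 levels in the Rspo4 cluster 137 moved by less than counting error. A cluster sharing 77 to 120 of its 120 cells was found in all 7 other clusterings. No paired analysis was possible because each genotype has 1 library, and no replicate could be left out. Of 54 thinned shares 10 moved by less than counting error and 44 moved with depth, higher at 5000 UMIs or unthinned and lower at 1000 UMIs. For Barx1 in WT mesenchymal cells a UMI was seen in 64 of 524 cells at 2000 UMIs and in 143 of 457 at 5000. Outside the Rspo4 cluster no named stromal group had more than 6 Msx2 UMIs, so its levels there are imprecise.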
